A study of Homo sapiens with 6 samples.

Results

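The alpha-arrestins TXNIP, ARRDC1, ARRDC2, ARRDC3 and ARRDC4 were followed in the ribosome-bound mRNA of MDA-MB-231 cells, a human triple-negative breast cancer line. The 5 genes, TXNIP and arrestin-domain-containing (ARRDC) genes, were chosen by name out of 21619 gene symbols in the count files. They were chosen with earlier results of these data known. All 5 had enough reads to be tested, whereas ARRDC5, a further ARRDC gene, had 0 reads and was not tested. Every culture carried an EGFP-tagged ribosomal protein L10a, which allows ribosomes and their mRNAs to be pulled down with an antibody to GFP (translating ribosome affinity purification, TRAP). All cultures had been kept in 0.2% serum for 24 h. Untreated cells received neither factor, the lower dose was 30 ng/mL CXCL12 with 10 ng/mL IGF1 for 6 h, and the higher dose was 300 ng/mL CXCL12 with 100 ng/mL IGF1 for 6 h. Each condition had 2 libraries, lettered a and b and called biological replicates in the labels. Whether the tagged cells were 1 clone is not given in the sources used here, and no culture received 1 factor alone.

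Alpha-arrestins are adaptor proteins of the plasma membrane and endosomes. Their arrestin fold contacts membrane proteins, and proline-rich motifs in their tails recruit ubiquitin ligases of the NEDD4 family, so that transporters and receptors are ubiquitinated and taken up. TXNIP also binds reduced thioredoxin and restrains glucose uptake, and its gene is a classic target of the glucose-sensing transcription factor pair MondoA and MLX, as is that of ARRDC4. TXNIP protein is additionally controlled by phosphorylation and degradation downstream of insulin-type receptors and energy-sensing kinases, which counts of mRNA do not measure.

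Each library held between 26255079 and 30280322 reads assigned to genes. Levels are given as CPM, read counts scaled to the size of the library, and 3 reads, the limit that a count of 0 allows, corresponded to 0.0989 to 0.114 CPM. The line's markers were in place: vimentin (VIM) had 2680 to 3750 CPM, CD44 741 to 940 CPM and KRT8 516 to 627 CPM, while the hormone receptors ESR1 and PGR had at most 5 reads in a library. ERBB2 had 54.3 to 77.2 CPM. Of the markers of other cell types, PTPRC, VWF and ALB had at most 14 reads, PECAM1 had 32 to 55 reads, and CD68, a lysosomal protein used as a macrophage marker, had 250 to 280 CPM. RPL10A, which encodes the protein that was tagged, had 1520 to 1620 CPM in the 6 libraries. Counts by gene symbol do not separate mRNA of the tagged copy from that of the cells' own gene.

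The upstream regions of 3 of the genes are shown because TXNIP and ARRDC4 share a known glucose-responsive regulator, whereas ARRDC2 was the gene that fell at the higher dose. The sequences are from RefSeq (GRCh38.p14), whose promoter table matched all 5 genes, and give the 250 bases before an annotated start of transcription, 5′ to 3′ on the gene's strand. Capitals mark matches to CACGNG, the E-box of the carbohydrate response element, to 2 such E-boxes with 5 bases of any kind between them, or to the forkhead motif GTAAACA, each searched on both strands.
TXNIP (chr1:145996580-145996829, minus strand): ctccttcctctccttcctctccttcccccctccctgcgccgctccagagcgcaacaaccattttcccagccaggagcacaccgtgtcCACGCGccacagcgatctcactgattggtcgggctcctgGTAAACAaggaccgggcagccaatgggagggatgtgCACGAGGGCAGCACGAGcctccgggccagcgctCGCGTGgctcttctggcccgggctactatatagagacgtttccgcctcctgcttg
ARRDC2, upstream start (chr19:18000874-18001123, plus strand): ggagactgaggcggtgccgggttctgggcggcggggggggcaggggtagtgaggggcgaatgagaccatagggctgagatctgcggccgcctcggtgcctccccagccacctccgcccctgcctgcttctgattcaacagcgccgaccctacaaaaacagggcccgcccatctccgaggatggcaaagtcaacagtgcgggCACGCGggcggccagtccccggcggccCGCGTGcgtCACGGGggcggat
ARRDC2, downstream start (chr19:18007920-18008169, plus strand): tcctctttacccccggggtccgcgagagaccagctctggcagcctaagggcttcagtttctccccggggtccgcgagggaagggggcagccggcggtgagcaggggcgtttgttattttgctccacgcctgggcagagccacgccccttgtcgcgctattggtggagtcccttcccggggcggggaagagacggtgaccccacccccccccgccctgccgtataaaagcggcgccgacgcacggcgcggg
ARRDC4 (chr15:97960453-97960702, plus strand): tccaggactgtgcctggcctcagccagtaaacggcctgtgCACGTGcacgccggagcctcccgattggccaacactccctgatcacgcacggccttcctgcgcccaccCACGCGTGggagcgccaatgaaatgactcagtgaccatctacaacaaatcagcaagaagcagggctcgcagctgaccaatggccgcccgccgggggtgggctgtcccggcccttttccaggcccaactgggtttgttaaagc
The TXNIP window held CACGNG at 4 positions, a pair of E-boxes that began 88 bases before the start (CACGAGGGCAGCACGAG), and a forkhead match that began 124 bases before it. Some matches to the single E-box lie within the pair. The pair was found in 16 of 35116 windows of this length in the table (0.0456%), the single E-box in 26.7% and the forkhead motif in 2.98%. ARRDC4 had the single E-box at 3 positions, of which a pair overlap each other. ARRDC2 had it at 3 positions before its upstream start and at none before its downstream start. The window of a second TXNIP start, the ARRDC1 window and the first ARRDC3 window held no match to these letters, and the second ARRDC3 window held 1 E-box and 1 forkhead match. These matches describe the letters in the windows; binding was not measured.

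The genes differed widely in abundance. Per length of transcript, averaged over the 6 libraries, TXNIP had 58.6 CPM per kb, ARRDC1 27.8, ARRDC2 15.6, ARRDC3 4.54 and ARRDC4 2.22 CPM per kb. The order was the same in every library, since the lowest value of each gene lay above the highest value of the next: TXNIP ranged over 53.9 to 61.5 CPM per kb, ARRDC1 over 27.3 to 28.8, ARRDC2 over 13.5 to 17.2, ARRDC3 over 4.2 to 5.01 and ARRDC4 over 1.93 to 2.37 CPM per kb. Among 11958 tested genes with a known length, whose median was 7.98 CPM per kb, TXNIP stood at the 86.8th percentile and ARRDC4 at the 26.6th. Lengths were those of the GENCODE v29 transcript with the longest coding sequence (1586 nt for ARRDC1 to 4188 nt for ARRDC3), so another isoform in these cells would shift the levels. TXNIP supplied 58.4% to 62.4% of the reads of the 5 genes in each library. The sum itself was 289 and 293 CPM in the untreated libraries, 277 and 270 CPM in the lower dose libraries, and 287 and 279 CPM in the higher dose libraries.

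**Figure D1:**
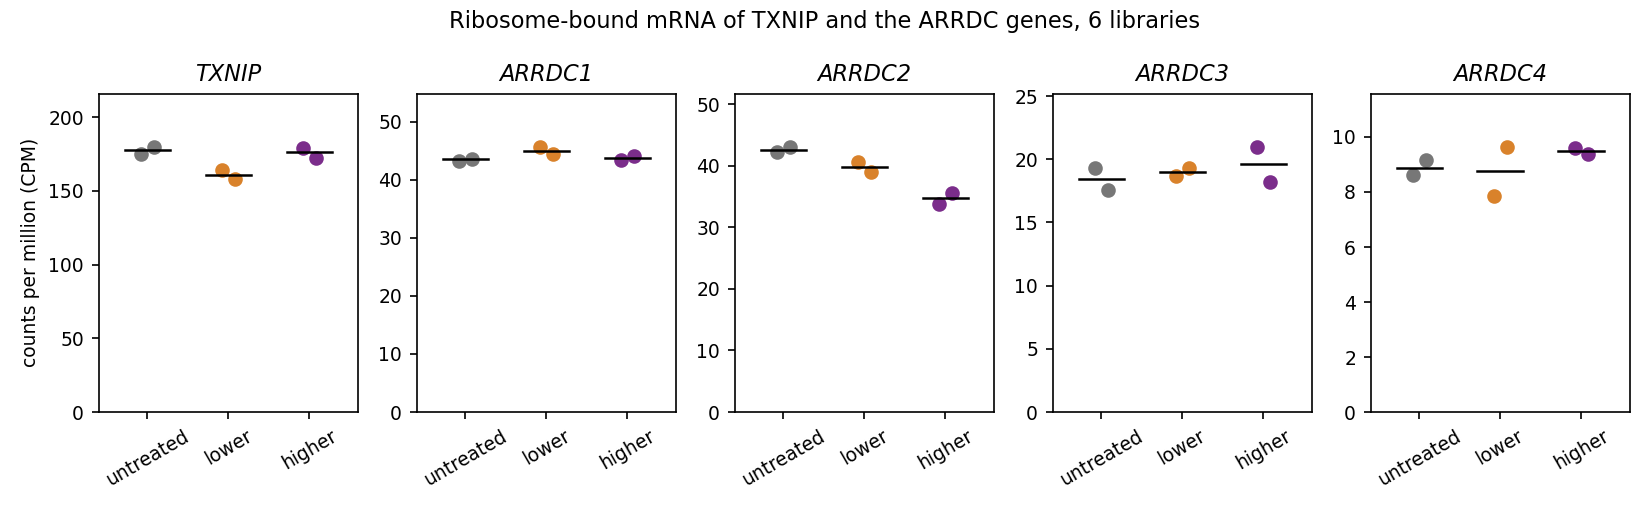
CPM of TXNIP, ARRDC1, ARRDC2, ARRDC3 and ARRDC4 in the 6 libraries, with untreated, lower dose and higher dose from left to right; points are libraries and lines are group means (n = 2), and each panel has its own axis from 0. TXNIP was lowest in the lower dose libraries (164 and 158 CPM), and ARRDC2 was lowest in the higher dose libraries (33.8 and 35.6 CPM).

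TXNIP lies on chromosome 1 (145992435 to 145996600, minus strand, GENCODE v29 on GRCh38) and was the most abundant of the 5 genes. Untreated libraries had 175 and 180 CPM, lower dose libraries 164 and 158 CPM, and higher dose libraries 179 and 172 CPM. Both lower dose libraries lay below all the others, while the higher dose and untreated libraries overlapped. Groups that do not overlap were seen for 64.4% of tested genes between the lower dose and untreated cells, and for 64.8% between the doses. At the lower dose TXNIP averaged 161 ± 4.7 CPM, against 178 ± 3.4 CPM in untreated cells (SD, n = 2 each). It fell by 9.35% (95% interval from −13.2% to −5.28%; log2 fold change −0.14 ± 0.03 SE, edgeR quasi-likelihood adjusted p = 0.000314). In that comparison 32.6% of all 13548 tested genes passed the threshold, 15.9% as falls, and 57.7% changed by a smaller absolute log2 fold change than TXNIP.

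At the higher dose TXNIP averaged 176 ± 5.3 CPM, against 178 ± 3.4 CPM in untreated cells, and did not pass (log2 fold change −0.02 ± 0.03, edgeR adjusted p = 0.68). The 95% interval of that difference ran from −5.37% to 3.26%, and 4.58% of tested genes changed by less. Between the doses TXNIP was 9.05% higher at the higher dose (log2 fold change 0.12 ± 0.03, edgeR adjusted p = 0.00131; 34% of genes passed in this comparison, 16.4% as rises). This rise missed the threshold without lower dose b (0.09, adjusted p = 0.0708) and without higher dose a (0.09, adjusted p = 0.0756). The fall at the lower dose passed under all 12 alternatives, at log2 fold changes from −0.17 to −0.11 and adjusted p values up to 0.0263. Since the pull-down alone was analysed, less TXNIP mRNA, less of it on ribosomes and lower recovery cannot be told apart, nor can fewer expressing cells and less RNA per cell; the same holds for every gene here.

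ARRDC2, on chromosome 19 (18001132 to 18014102, plus strand), is an alpha-arrestin less well studied than the others. Untreated libraries had 42.2 and 43.1 CPM, lower dose libraries 40.6 and 39 CPM, and higher dose libraries 33.8 and 35.6 CPM. No 2 of the 3 groups overlapped, and the values stepped down with dose. A lack of overlap was seen for 64.4% of tested genes between the lower dose and untreated cells, and for 64.8% between the doses. The share of genes for which all 3 groups lay apart was not counted. At the higher dose it averaged 34.7 ± 1.2 CPM, against 42.6 ± 0.59 CPM in untreated cells (SD, n = 2 each), a fall by 18.7% (95% interval from −24.1% to −12.9%; log2 fold change −0.30 ± 0.05, edgeR adjusted p = 8.42e-07). Groups that do not overlap were common in this comparison, at 76.3% of tested genes, and 56.3% of genes passed the threshold, 28.2% as falls. The fall of ARRDC2 was larger in absolute log2 fold change than that of 66.7% of genes, and 17.3% of genes had a lower log2 fold change.

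ARRDC2 also fell by 12.8% between the doses, with 34.7 ± 1.2 CPM at the higher dose and 39.8 ± 1.1 CPM at the lower dose (log2 fold change −0.20 ± 0.05, edgeR adjusted p = 0.00139; 17.6% of genes fell). At the lower dose it had a log2 fold change of −0.10 ± 0.05 against untreated cells and did not pass (edgeR adjusted p = 0.106; 95% interval from −12.8% to −0.266% before adjustment). Under the 12 alternatives the fall at the higher dose passed throughout, from −0.34 to −0.24. An overlapping transcript on the opposite strand, AC020904.3, shares 442 bp with ARRDC2 and was not matched to a symbol in the files. No source used here says whether strand was used in counting.

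ARRDC1, ARRDC3 and ARRDC4 did not pass in any of the 3 comparisons with edgeR. Their 95% intervals, not adjusted for multiple genes, give a range for each change and no firm limit. ARRDC1, which recruits the ESCRT protein TSG101 to bud vesicles from the plasma membrane, is on chromosome 9 (137605654 to 137615360, plus strand). Untreated libraries had 43.3 and 43.6 CPM, lower dose libraries 45.7 and 44.4 CPM, and higher dose libraries 43.4 and 44 CPM. Both lower dose values were above the others; the lower dose group did not overlap untreated cells for 64.4% of tested genes, or the higher dose for 64.8%. The groups of the higher dose and of untreated cells overlapped. Its change at the higher dose was 0.673% (95% interval from −5.65% to 7.42%, adjusted p = 0.879 in edgeR), and at the lower dose 3.62% (−2.83% to 10.5%, adjusted p = 0.43).

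The antisense gene ARRDC1-AS1, listed as C9orf37, overlaps ARRDC1 by 29 bp on the opposite strand. It averaged 14.2 CPM at the higher dose and 10.7 CPM in untreated cells, a rise with a log2 fold change of 0.40 ± 0.08 (edgeR adjusted p = 4.32e-05). At the lower dose it averaged 13.1 CPM (0.28 ± 0.08, adjusted p = 0.00676), a call lost with DESeq2 (adjusted p = 0.0943) and when untreated a (adjusted p = 0.12) or lower dose a (adjusted p = 0.117) was left out. The difference in response between ARRDC1 and its antisense neighbour was not tested. C9orf37 was described because of its position, and its values were seen when it was chosen. Without strand, reads of the pair within the shared 29 bp cannot be assigned to either gene. A further annotated transcript, AL590627.2, overlaps ARRDC1 over 9617 bp on the same strand and was not matched to a symbol in the files.

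ARRDC3 is known as an adaptor for ubiquitination of the beta-2 adrenergic receptor and as a suppressor of integrin beta-4 in breast cancer cells, and lies on chromosome 5 (91368724 to 91383359, minus strand). Untreated libraries had 19.3 and 17.6 CPM, lower dose libraries 18.7 and 19.3 CPM, and higher dose libraries 21 and 18.2 CPM. All 3 groups overlapped, and the libraries of the higher dose differed from each other more than the group means did. Its change at the higher dose was 6.37% (95% interval from −3.56% to 17.3%, adjusted p = 0.292 in edgeR), with a log2 fold change of 0.19 (adjusted p = 0.0585) without higher dose b and −0.02 (adjusted p = 0.886) without higher dose a. The annotated antisense gene ARRDC3-AS1 overlaps it by 3011 bp and had 2 to 16 reads in a library, where ARRDC3 had 507 to 591 reads. ARRDC3-AS1, listed as LOC100129716, passed as a rise at the lower dose, with 11 and 16 reads, against 5 and 2 reads in untreated cells (edgeR adjusted p = 0.00831). It missed the threshold when untreated b (adjusted p = 0.17) or lower dose b (0.113) was left out, and DESeq2 gave it no adjusted p.

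ARRDC4, the member closest to TXNIP in known regulation and in restraining glucose uptake, is on chromosome 15 (97960698 to 97973838, plus strand). Untreated libraries had 8.6 and 9.17 CPM, lower dose libraries 7.86 and 9.65 CPM, and higher dose libraries 9.61 and 9.37 CPM. The lower dose libraries spanned every other value, and both higher dose values lay above both untreated ones, a lack of overlap seen for 76.3% of tested genes. The change at the higher dose was 6.66% (95% interval from −6.88% to 22.2%, adjusted p = 0.438 in edgeR). With 226 to 279 reads per library this gene had the widest intervals of the 5. At the lower dose, where TXNIP fell, ARRDC4 had a change of −1.62% (−14.3% to 12.9%), an interval that holds the fall of TXNIP.

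**Figure D2:**
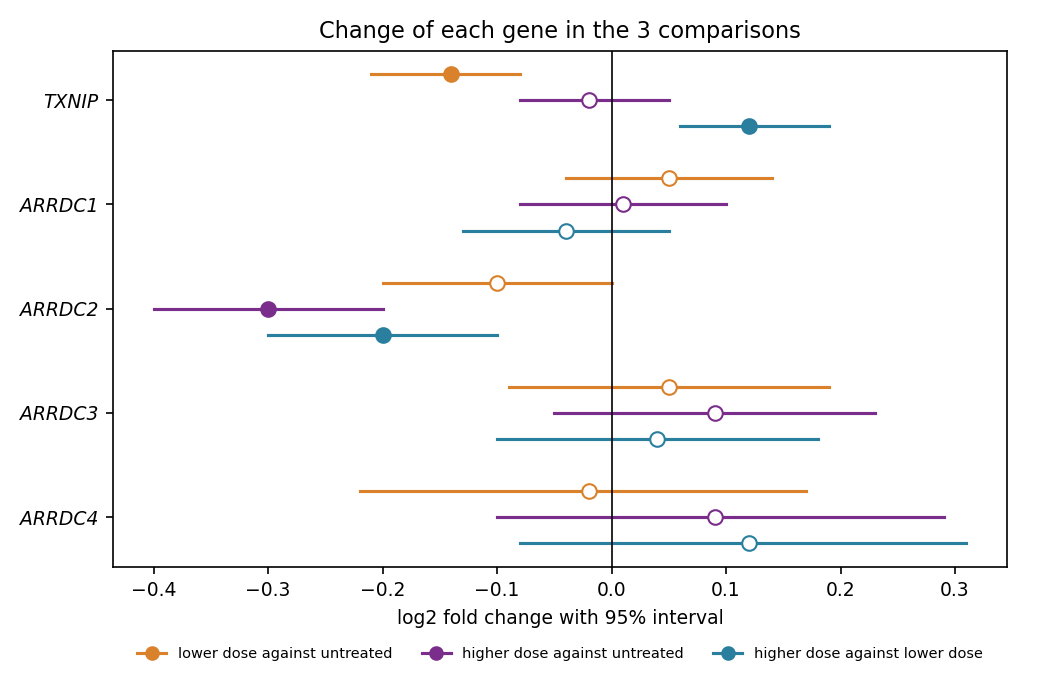
Log2 fold change of each gene in the 3 comparisons, with 95% intervals not adjusted for multiple genes; filled points passed the adjusted threshold of 0.05 in edgeR and open points did not. Filled are TXNIP for the lower dose (−0.14) and ARRDC2 for the higher dose (−0.30), and both genes for higher against lower (0.12 and −0.20).

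As a group, 1 of the 5 genes passed at the lower dose, where 32.6% of all genes did, 1 of 5 at the higher dose, where 56.3% did, and 2 of 5 between the doses, where 34% did. The median log2 fold change of the 5 was −0.02 for the lower dose, 0.01 for the higher dose and 0.04 for one dose against the other, where it was 0 for all tested genes in each. Their median absolute log2 fold change at the higher dose was 0.09, against 0.21 for all tested genes. Both doses were compared with the same untreated libraries, so their values are not independent. None of the 5 changed 1.5-fold in any comparison. That size, with a call, was reached by 0.76% of all genes for the lower dose, by 6.9% for the higher dose and by 1.33% for the higher against the lower. These are counts of 5 genes chosen with earlier results known and describe the group without testing it.

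The genes whose profile lay nearest to each member were found by the Euclidean distance between log2 CPM over the 6 libraries, each centred on its own mean. Nearest to TXNIP were PRKDC, ZNF268 and IQCE, at 0.0506 to 0.0556, where the median distance over all genes was 0.335. Nearest to ARRDC2 were TBC1D17, GLRX and FZD1, at 0.0461 to 0.0479 (median 0.414). ARRDC1 was nearest to GLOD4 (0.0261), ARRDC3 to ZNF222 (0.0418) and ARRDC4 to MICALL2 (0.0611). The list for each member held no other member among its 5 nearest genes. With only 5 of 13548 tested genes listed for each, this says little about how alike the members are.

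Thioredoxin, which TXNIP binds, and the enzymes around it changed in both directions. Of 8 listed genes of the thioredoxin system and partners of TXNIP, 3 rose and 2 fell at the higher dose, beside 28.1% rises and 28.2% falls among all tested genes. TXN, cytosolic thioredoxin, averaged 1030 ± 16 CPM at the higher dose, against 892 ± 15 CPM in untreated cells (log2 fold change 0.21 ± 0.03, edgeR adjusted p = 1.35e-09). With offsets for transcript length and GC content, TXN had 0.01 (adjusted p = 0.631). TXNRD1, the reductase that regenerates it, averaged 351 ± 2.7 CPM at the higher dose, against 441 ± 17 CPM in untreated cells (−0.33 ± 0.03, adjusted p = 6.51e-15). GLRX, glutaredoxin, fell by 20.2% (−0.33 ± 0.04, adjusted p = 6.86e-10).

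DDIT4, a stress-induced inhibitor of mTORC1 whose protein forms a complex with TXNIP, had its lowest values at the lower dose, as TXNIP did. This was not particular to DDIT4 among the listed genes. BHLHE40 (69.8 and 71.5 CPM) and KLF10 (29.7 and 28.5 CPM) were also lowest in the lower dose libraries. DDIT4 had 162 and 150 CPM in untreated libraries, 142 and 137 CPM in lower dose libraries, and 171 and 170 CPM in higher dose libraries. It fell at the lower dose (−0.16 ± 0.03, edgeR adjusted p = 0.000116) and rose in the comparison of the doses (0.29 ± 0.03, adjusted p = 2.76e-10). It also passed as a rise at the higher dose against untreated cells (0.13 ± 0.03, adjusted p = 0.000548), a call lost without untreated b (0.07, adjusted p = 0.0891); the difference from TXNIP was not tested.

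Of the factors known to act on such E-boxes, MLX and MLXIP rose and MLXIPL fell at the higher dose. Of 7 tested genes of the MondoA and ChREBP list, 3 rose and 1 fell, where 28.1% of all tested genes rose and 28.2% fell. MLX, the shared partner, averaged 147 ± 0.17 CPM at the higher dose, against 119 ± 1.8 CPM in untreated cells (0.31 ± 0.03, edgeR adjusted p = 3.33e-12). MLXIP, which encodes MondoA, averaged 64.6 ± 0.022 CPM at the higher dose, against 59 ± 0.86 CPM in untreated cells (0.13 ± 0.04, adjusted p = 0.00502), and missed the threshold with DESeq2 (adjusted p = 0.0627) and without untreated b (0.11, adjusted p = 0.0511). With offsets for length and GC content MLXIP had 0.31 (adjusted p = 4.24e-11). HK2, a hexokinase and glucose-responsive gene, rose by 21% (0.28 ± 0.03, adjusted p = 7.28e-10). MLXIPL, which encodes ChREBP, was the fall (−1.16 ± 0.40, adjusted p = 0.0108) but had 0.177 to 0.824 CPM and at most 25 reads, and the call was lost without higher dose a (−0.59, adjusted p = 0.269) and without untreated b (−1.10, adjusted p = 0.0611). Without higher dose b it was −2.14 (adjusted p = 0.00201). PKLR had 0 reads and was not tested. The other glucose-responsive genes listed, KLF10 (−0.05, edgeR adjusted p = 0.433), BHLHE40 (0.06, 0.227) and RGS16 (0.46, 0.193), did not pass at the higher dose. At the lower dose KLF10 (−0.15, edgeR adjusted p = 0.0285) and BHLHE40 (−0.13, 0.00811) fell, where 15.9% of all tested genes did. HK2 (−0.04, 0.425) and RGS16 (−0.23, 0.639) did not pass there.

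Among 11 tested ligases of the NEDD4 family and their adaptors, 2 rose and 5 fell at the higher dose, beside 28.1% rises and 28.2% falls over all tested genes. ITCH averaged 65.1 ± 0.57 CPM at the higher dose, against 80.1 ± 1.2 CPM in untreated cells (−0.30 ± 0.04, edgeR adjusted p = 1.86e-09). WWP2 averaged 42.7 ± 2.2 CPM at the higher dose and 52 ± 0.77 CPM in untreated cells (−0.29 ± 0.05, adjusted p = 4.38e-07), and NEDD4 fell by 15.1% (−0.24 ± 0.04). NEDD4L (0.11) and SMURF2 (0.19) were the rises. With offsets for length and GC content WWP2 had −0.16 (adjusted p = 0.00154) and NEDD4L 0.21 (adjusted p = 9.63e-11).

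Of 6 tested genes with an arrestin-type fold other than the 5 members, 2 fell at the higher dose, a share near the 28.2% of all tested genes that fell. ARRB1, beta-arrestin 1, which desensitises G protein-coupled receptors such as CXCR4, averaged 47.6 ± 2.6 CPM at the higher dose, against 75.1 ± 0.78 CPM in untreated cells (−0.66 ± 0.04, edgeR adjusted p = 1.08e-19). ARRB2 had 21.1 CPM at the higher dose and 20.5 CPM in untreated cells (adjusted p = 0.593). RGP1, an arrestin-like trafficking protein, fell by 16.9% (−0.27 ± 0.05), or −0.11 (adjusted p = 0.0647) with offsets for length and GC content. ARRDC5 and the visual arrestins SAG and ARR3 had 0 reads in all 6 libraries.

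Of 15 tested ESCRT genes that serve ARRDC1 in vesicle release, 4 rose and 5 fell at the higher dose, shares near the 28.1% rises and 28.2% falls of all tested genes. TSG101, bound directly by ARRDC1, averaged 96.5 ± 1.5 CPM at the higher dose, against 115 ± 2.2 CPM in untreated cells (−0.25 ± 0.03, edgeR adjusted p = 6.28e-09). PDCD6IP (ALIX) fell by 20.2% and the ATPase gene VPS4B fell by 20.7%, each with a log2 fold change of −0.33. Its paralog VPS4A (0.19) and the TSG101 partners VPS37A (0.30) and VPS37B (0.26) were among the rises; VPS4A had 0.29 with offsets for length and GC content.

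Of 10 transporters and receptors described as cargo of alpha-arrestins, 7 fell and 1 passed as a rise at the higher dose, where 28.2% of all tested genes fell and 28.1% rose. The list had a median log2 fold change of −0.45, against 0 for all tested genes. SLC2A1, the glucose transporter GLUT1 that TXNIP internalises, averaged 525 ± 5.8 CPM at the higher dose, against 807 ± 24 CPM in untreated cells (−0.62 ± 0.03, edgeR adjusted p = 1.23e-26). ITGB4, the integrin subunit controlled by ARRDC3, averaged 102 ± 2.9 CPM at the higher dose and 201 ± 9.2 CPM in untreated cells (−0.97 ± 0.03, adjusted p = 6.33e-31). The rise was AVPR2, a vasopressin receptor with at most 15 reads in a library (edgeR adjusted p = 0.00895). It missed the threshold when untreated b (adjusted p = 0.0645) or higher dose a (0.0755) was left out. For the lower dose, where 15.9% of all genes fell and 16.7% rose, 5 of the 10 fell and AVPR2 passed as a rise (adjusted p = 0.0435), a call lost without lower dose a (0.674) among other settings.

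**Figure D3:**
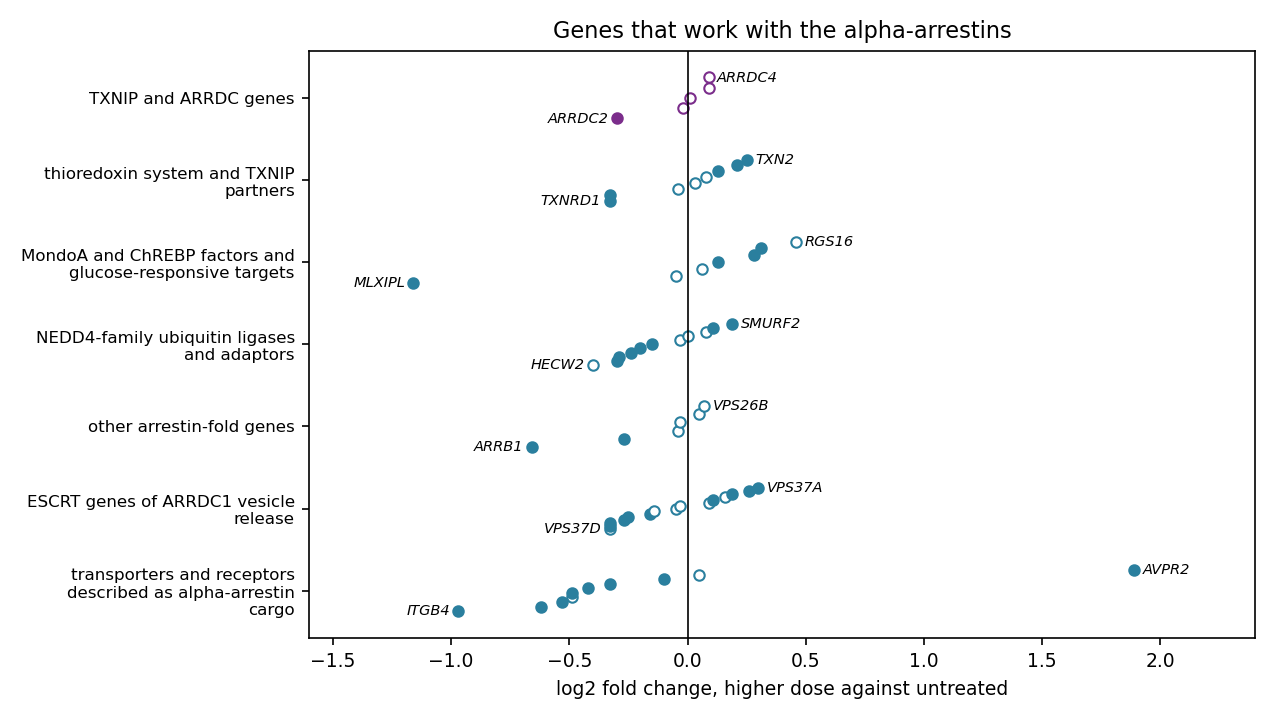
Log2 fold change at the higher dose against untreated cells for TXNIP and the ARRDC genes (top row) and for the tested genes of 6 lists of partners; each point is 1 gene, filled where it passed in edgeR, and the lowest and highest gene of each row is named. The 5 members lie between −0.30 (ARRDC2) and 0.09 (ARRDC3 and ARRDC4), and the cargo genes reach −0.97 (ITGB4).

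Across the 12 alternatives TXNIP at the higher dose ranged from −0.05 to 0.01 on the log2 scale. ARRDC1 at the higher dose ranged from −0.03 to 0.02. ARRDC3 ranged from −0.02 to 0.19 and ARRDC4 from 0.05 to 0.14 in the same comparison, and neither passed under any of the 12 alternatives.

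**Figure D4:**
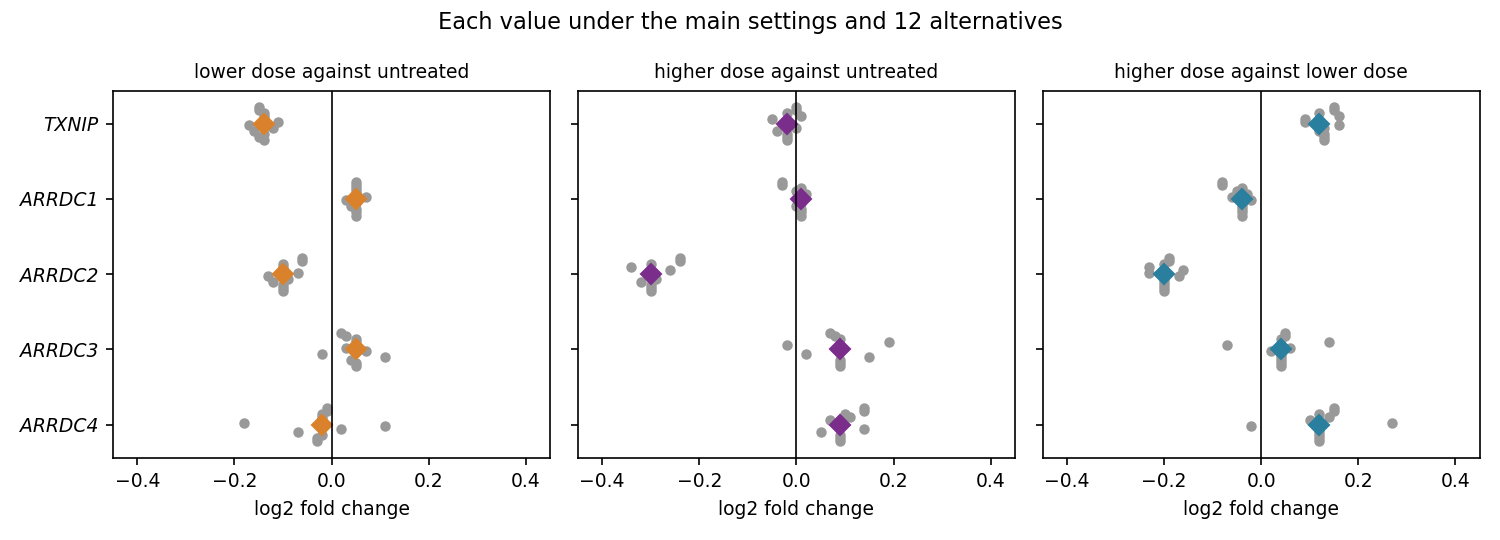
Log2 fold change of each gene in each comparison with the main settings (diamonds) and with 12 alternatives (grey points: other scaling, no filter, DESeq2, each library left out, the replicate block, and length and GC offsets with and without it). ARRDC2 stays between −0.34 and −0.24 at the higher dose, and TXNIP between −0.17 and −0.11 at the lower dose.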

How the data were processed

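Polyadenylated RNA from TRAP of MDA-MB-231 cells was sequenced in 6 libraries. The deposited values are raw read counts by gene symbol, as whole numbers; per the submitters' processing notes the authors used CASAVA 1.8.1, TopHat 1.4.0 and HTSeq with build hg19. No source used here gives the annotation, counting mode or strand setting. Summary lines of HTSeq, with 9.4% to 10.2% of reads, were left out. Groups came from the titles.

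Counts were tested in edgeR 4.0.16 (R 4.3.3) with TMM scaling, filterByExpr by group (13548 genes kept, 8071 not), a robust quasi-likelihood fit of 3 group means over all 6 libraries and two-sided F tests; Benjamini-Hochberg adjustment was over all genes tested, with a threshold of 0.05. CPM are scaled by TMM. Standard errors were derived from the fold change and its F statistic, and 95% intervals use the fit's degrees of freedom. The biological coefficient of variation was 1.79%. With 2 libraries a group, p-values set the difference between groups against the spread between these libraries, estimated largely from all genes together. Each gene had 3 residual degrees of freedom of its own. The tests used 53.2 for TXNIP and 52.7 for ARRDC3, through information shared across genes. Chi-square per degree of freedom between replicates was 1.52 to 1.98, more than counting noise. The 95% intervals include the estimated spread between libraries, whereas the floor of 3 reads covers counting error only.

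Alternatives were DESeq2 1.42.0, RLE scaling, no filter, each library left out, the letter as a block, and offsets that remove a smooth trend (splines, 5 degrees of freedom) on transcript length and GC content, known from GENCODE v29 for 88.3% of tested genes. The fit was checked on simulated data with changes of 1.25-fold to 3-fold and the same spread for every gene. It recovered 80% of the changes of 1.25-fold. Smaller changes, such as those of TXNIP, were not simulated.

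The members and lists were chosen with earlier results of these data known, and give no independent support. From each list the text names the 2 genes with the largest absolute log2 fold change at the higher dose among those that passed, and direct partners of the members; a few further members of the lists were named after their values were seen. Listed genes were matched to the files by symbol or, through the reference tables, by older symbol.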

Additional observations from a re-analysis of the deposited data

How the results depend on the processing

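Of the 180 values of the 5 genes under the 12 alternatives, 178 kept the side of the threshold; the other 2 are those of TXNIP between the doses, which ranged from 0.09 to 0.16 when a library was left out, and the count of the 5 genes that passed there ranged from 1 to 2. Leaving out a library leaves 1 in its group, which is assumed to vary like the other groups. DESeq2 called 2563 genes at the lower dose, against 4418 with edgeR, and 2759 between the doses, against 4612. Of the listed partner genes with an adjusted p, DESeq2 called 16 of 49 at the lower dose, and edgeR 27 of 57. DESeq2 kept the calls of TXNIP (adjusted p = 0.00406 at the lower dose) and ARRDC2 (0.000214 at the higher dose). DESeq2 gave an adjusted p for 10622 genes at the lower dose and 10969 between the doses, fewer than edgeR's 13548. It was run on all genes with a read, and its default setting withholds an adjusted p from genes with low mean counts. With the replicate block, 4320 genes passed at the lower dose and 7561 at the higher, and TXNIP (−0.14) and ARRDC2 (−0.30) were as before; the replicate block changed no call of the 5 genes. Differences between libraries a and b correlated by −0.04 to 0 between groups, so no shared effect of the letter was seen. Whether libraries of the same letter were prepared together cannot be told from this, since pairs with little shared effect would look the same. Shorter transcripts were relatively more abundant at the higher dose than in untreated cells (Spearman rho of log2 fold change and length −0.24 across genes). The same rho was −0.23 for the lower dose against untreated cells and −0.18 between the doses. With the offsets for length and GC content ARRDC2 had −0.24 at the higher dose (edgeR adjusted p = 1.25e-05). TXNIP had −0.15 at the lower dose with these offsets (edgeR adjusted p = 3.86e-05). Among the named list genes and the antisense genes, 600 values under alternatives kept their side of the threshold, 52 lost a call and 2 gained one, and those at the higher dose stand beside the genes in the text. Depth limits ARRDC4 most, with 226 to 279 reads per library.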
